A study of Homo sapiens with 4 samples.

Results

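Antisense transcripts are RNAs made from the strand opposite a coding gene, and gene nomenclature names them after that gene with the ending -AS and a number. All transcripts of the long noncoding table with an Ensembl identifier and such a name were taken, apart from those of EPB41L4A-AS1. They came to 3534 of 29119 transcripts and belong to 1135 genes. A coding gene of the name before -AS was in the coding table for 1110 of these genes and not for 25, among them HOXD-AS2 and PRR34-AS1. The samples were 4 RNA-seq libraries of hepatocellular carcinoma cell lines, 1 library each for untreated and treated cells labelled HepG2 and for untreated and treated Huh7 cells. Treatment was low-frequency ultrasound with RSL3@O2-ICG NBS, for 24 h, and RSL3 is a known inhibitor of the lipid peroxide reductase GPX4. The labels give no strand for the libraries and no second culture of any group, so nothing within a line could be tested.

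Antisense transcripts often start close to a coding gene's promoter and run away from it, or lie across its exons or introns. Active promoters commonly fire in both directions, and the nuclear exosome removes much of the RNA that leaves the noncoding side. Some antisense RNAs lower or raise the output of the gene they face, while others are handled as independent long noncoding RNAs.

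Implied depth was 25700000 and 23200000 fragments for untreated and treated cells labelled HepG2 and 26400000 and 22900000 for those of Huh7, read from the spacing of low values. The libraries labelled HepG2 went against their label for a liver line: ALB, the serum albumin gene, had no FPKM above 0 in either, against 883 and 711 FPKM (fragments per kilobase of transcript per 1000000 fragments) in untreated and treated Huh7. They are therefore called the libraries labelled HepG2 throughout. Most antisense transcripts were not seen at this depth, since 1883 of 3534 (53.3%) were listed at 0 in all 4 libraries. Only 192 (5.43%), from 148 genes, reached 1 FPKM in at least 1 library, 15 reached 5 FPKM and 6 reached 10 FPKM. Among the other annotated long noncoding transcripts 5.04% reached 1 FPKM. Among the 1002 different coding partners, measured per gene, 70.66% did, and of the antisense genes with their transcripts summed 15.86% did.

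The promoter windows below belong to antisense genes that the results turn on, and were chosen after their values were seen: SPRY4-AS1 and ALOX12-AS1, each with 1 transcript past 2-fold in both lines, KTN1-AS1 and SERTAD4-AS1, past 2-fold together with their partner, SEMA3B-AS1, which starts beside its partner, NNT-AS1, which fell in the test over both lines, and ARHGAP5-AS1, the furthest apart between the lines. Sequences are from RefSeq on GRCh38.p14, reach from at most 250 bases before the start to 50 after it, and leave out bases in exons of coding genes. Capitals mark matches, on either strand, to TGACNNNGC (antioxidant response element), CACGTG (E-box) or CCAAT.
SPRY4-AS1 (chr5:142325043-142325342, plus strand): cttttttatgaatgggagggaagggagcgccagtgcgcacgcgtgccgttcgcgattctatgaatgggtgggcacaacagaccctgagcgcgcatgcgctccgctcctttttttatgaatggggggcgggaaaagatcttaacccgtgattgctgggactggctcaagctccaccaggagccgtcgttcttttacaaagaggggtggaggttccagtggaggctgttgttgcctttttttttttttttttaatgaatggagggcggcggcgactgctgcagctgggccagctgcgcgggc
ALOX12-AS1 (chr17:7012285-7012416, minus strand): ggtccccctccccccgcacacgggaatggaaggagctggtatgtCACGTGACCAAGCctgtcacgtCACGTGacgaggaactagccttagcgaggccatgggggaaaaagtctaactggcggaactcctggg
KTN1-AS1 (chr14:55580043-55580209, minus strand): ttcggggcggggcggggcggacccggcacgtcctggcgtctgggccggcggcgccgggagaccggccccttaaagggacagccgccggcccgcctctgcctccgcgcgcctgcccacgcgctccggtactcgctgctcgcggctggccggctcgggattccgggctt
SERTAD4-AS1 (chr1:210233836-210234135, minus strand): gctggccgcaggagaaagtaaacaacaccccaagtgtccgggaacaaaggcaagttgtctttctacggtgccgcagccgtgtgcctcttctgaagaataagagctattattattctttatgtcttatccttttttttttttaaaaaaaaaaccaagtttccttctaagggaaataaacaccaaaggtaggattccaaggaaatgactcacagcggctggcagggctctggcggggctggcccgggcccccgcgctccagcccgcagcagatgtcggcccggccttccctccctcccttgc
SEMA3B-AS1 (chr3:50267322-50267557, minus strand): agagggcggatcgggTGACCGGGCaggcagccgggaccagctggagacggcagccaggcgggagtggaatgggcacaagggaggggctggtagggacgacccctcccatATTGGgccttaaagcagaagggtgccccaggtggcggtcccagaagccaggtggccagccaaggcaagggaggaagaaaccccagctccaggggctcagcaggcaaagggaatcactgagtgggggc
NNT-AS1 (chr5:43603295-43603480, minus strand): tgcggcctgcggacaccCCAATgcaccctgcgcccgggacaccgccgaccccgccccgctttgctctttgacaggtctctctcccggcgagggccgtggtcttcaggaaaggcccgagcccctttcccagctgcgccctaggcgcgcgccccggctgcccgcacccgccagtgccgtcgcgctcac
ARHGAP5-AS1 (chr14:32076658-32076949, minus strand): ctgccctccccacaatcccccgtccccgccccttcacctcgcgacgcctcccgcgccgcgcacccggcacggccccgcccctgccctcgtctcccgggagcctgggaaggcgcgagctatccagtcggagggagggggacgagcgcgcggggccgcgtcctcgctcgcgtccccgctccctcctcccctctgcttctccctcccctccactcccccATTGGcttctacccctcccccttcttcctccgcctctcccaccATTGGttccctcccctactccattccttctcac

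The ALOX12-AS1 window held an antioxidant response element at base 49 and E-boxes at bases 45 and 67, and the first E-box overlapped the element. The SEMA3B-AS1 window held an antioxidant response element at base 16 and a CCAAT box at base 110. A CCAAT box was at base 18 of the NNT-AS1 window, which lies before its start, and at bases 217 and 260 of the ARHGAP5-AS1 window. The letters of these motifs were not in the windows of SPRY4-AS1, KTN1-AS1 and SERTAD4-AS1. Bases are counted from 1 at the 5′ end. Promoters of 748 of the 1135 antisense genes were in the reference table, and 109 of the 148 with a transcript at 1 FPKM. In the 131 promoters of those 109 genes the median number of CpG dinucleotides was 24, against 10 in the 840 promoters of all matched antisense genes and 14 in all 35116 promoters of the table. It was also 24 in the 196 promoters of their coding partners, the same as in the antisense promoters. TGACNNNGC was in 17.6% of the 131 promoters, in 12.8% of the partners' promoters and in 13.3% of all promoters. CACGTG was in 6.87% of the 131 and 7.26% of all, CCAAT in 41.2% of the 131, 34.2% of the partners' and 34.6% of all promoters, TATAAA in 6.11% and 11.5%, and the amino acid response element TGATGNAAN in 0.763% and 3.61%.

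The most abundant antisense transcripts were AGAP2-AS1-201, FGD5-AS1-202 and FGD5-AS1-203. Within a line, a value that went from one level to another did so from untreated to treated cells. AGAP2-AS1-201, beside a gene for a GTPase-activating protein, went from 11.1 to 16.5 FPKM in the cells labelled HepG2 and in Huh7 from 18.3 to 21.5 FPKM. Its partner AGAP2 stood at 0.204, 1.25, 1.27 and 1.48 FPKM in the same order, below the antisense transcript in every library. FGD5, a guanine nucleotide exchange factor gene of endothelial cells, was listed at 0 in all 4 libraries while the transcripts of FGD5-AS1 summed to 25.1, 20.2, 35.1 and 32.7 FPKM. MIF showed the reverse order of levels. MIF, the gene of a cytokine, stood at 798, 529, 190 and 154 FPKM and MIF-AS1-201 at 15.1, 8.54, 5.06 and 5.597 FPKM, and 46.5% of the antisense exons lie over coding exons, so reads of the genes cannot be told apart there.

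**Figure D1:**
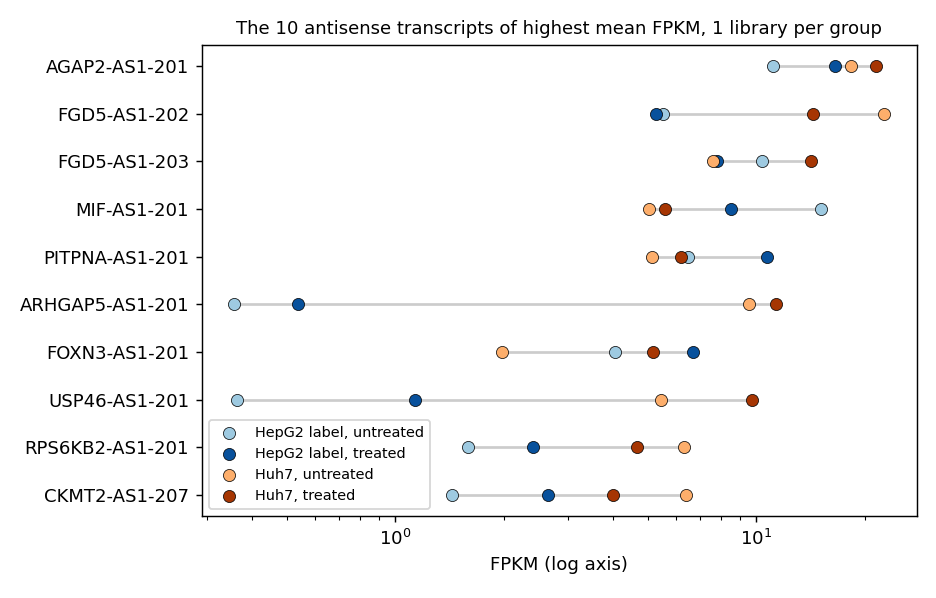
FPKM on a log axis of the 10 antisense transcripts with the highest mean, 1 point per library. ARHGAP5-AS1-201 and USP46-AS1-201 are split by cell line, with both libraries labelled HepG2 below 1.2 FPKM and both Huh7 libraries above 5.4 FPKM.

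The antisense gene was above its partner in a minority of loci. Of the antisense genes whose summed transcripts reached 1 FPKM, 25 of 89 and 33 of 119 exceeded the partner without and with treatment in the cells labelled HepG2, and 30 of 99 and 35 of 117 in Huh7. The levels of an antisense gene and of its partner showed no clear relation across loci: Pearson's r lay between -0.0391 and -0.0038 over these 89 to 119 genes of 1 library each, as a description.

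After treatment, antisense transcripts differed in both directions and few did so in both lines. A transcript was counted as higher or lower when the ratio of treated to untreated FPKM, after adding 1 to each, was at least 2-fold, among transcripts of at least 1 FPKM in 1 of the 2 libraries. In the cells labelled HepG2, 16 of 133 transcripts were higher and 9 lower, and in Huh7 14 of 125 were higher and 10 lower. Over all long noncoding transcripts the same rule counted 13.5% higher and 5.25% lower in the cells labelled HepG2 and 10.3% higher and 5.49% lower in Huh7. Over all coding genes it counted 6.7% higher and 2.43% lower in the former and 3.88% and 2.19% in the latter. Here and below, coding values are per gene and noncoding values per transcript, so coding shares are of an unlike unit. Shares by antisense gene are given with the gene sums. The antisense shares, 12.03% and 6.77% and then 11.2% and 8%, were thus near those of long noncoding transcripts in general. Median log2 ratios were 0.35 in the cells labelled HepG2 and 0.28 in Huh7, against 0.31 and 0.23 over all long noncoding transcripts and 0.09 and 0.10 over all coding genes. The antisense medians depend on the scale: they were 0.03 and 0.03 over all members above 0 with no minimum and 0.57 and 0.45 with a pseudocount of 0.1, and size factors gave 0.18 in Huh7. More antisense transcripts stood at 1 FPKM or above in the treated than in the untreated libraries, 112 against 79 and 103 against 75, and the same held for the other annotated long noncoding transcripts, at 638 against 475 and 680 against 505. A pseudocount of 0.1 counted 42 higher and 14 lower in the cells labelled HepG2 and 37 and 16 in Huh7. Without members that overlap a coding exon the counts were 7 and 4, then 4 and 7, with median log2 ratios of 0.29 and 0.28.

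Of 66 transcripts that passed the minimum in both lines, 32 had a log2 ratio above 0 in both, 8 below 0 in both and 26 of opposite sign. Only 2 transcripts were past 2-fold and higher in both lines, none was lower in both, and 2 went opposite ways, of 45 past 2-fold in either line. Ratios above 0 made up 67.67% of antisense transcripts in the cells labelled HepG2 and 69.6% in Huh7. Over all long noncoding transcripts these shares were 67.45% and 65.18%. Overlap between the lines was not counted over all long noncoding transcripts, so these counts cannot be called particular to antisense transcripts. SPRY4-AS1-206 was listed at 0 in the untreated and stood at 1.67 FPKM in the treated library labelled HepG2, and went from 1.07 to 7.18 FPKM in Huh7. These values rest on 21, 15 and 89 implied fragments, with exact 95% Poisson intervals of 13.0 to 32.1, 8.40 to 24.7 and 71.5 to 109.5. The intervals treat the implied fragments as counts. They leave out the error of the inferred depth and of the division of reads between transcripts of the gene. The treated library was the higher one in each line, and untreated Huh7 lay below the treated library labelled HepG2. Its locus is on the plus strand at chr5:142325298-142353621 (GRCh38), and its start lies 1157 bases from that of SPRY4. The transcript shares no exon with SPRY4 but overlaps that gene outside exons. Without knowledge of strand, reads from SPRY4 introns cannot be told apart from it there. SPRY4, which encodes a feedback inhibitor of receptor tyrosine kinase signalling, went from 0.680 to 4.94 FPKM in the cells labelled HepG2 and in Huh7 from 11.4 to 7.04 FPKM. Partner and antisense were both higher with treatment in the former, while in Huh7 the log2 ratio was -0.62 for the partner and 1.98 for the antisense transcript.

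ALOX12-AS1-202 was listed at 0 in both untreated libraries and measured 1.36 FPKM in the treated library labelled HepG2 and 1.02 FPKM in treated Huh7. Its exons overlap a coding exon, so without knowledge of strand its reads cannot be told apart from coding reads there. These levels rest on 21.0 and 15.5 implied fragments, and Huh7 fell short of 2-fold with size factors, at a log2 ratio of 0.9996, and with equal sums of coding FPKM, at 0.98. The transcripts of the gene together went from 1.61 to 3.63 FPKM in the cells labelled HepG2 and in Huh7 from 1.21 to 2.27 FPKM, short of 2-fold on the scale used in each line. ALOX12, the arachidonate 12-lipoxygenase gene whose product makes lipid hydroperoxides, was under 0.5 FPKM in all 4 libraries. SNAI3-AS1 was past 2-fold in both lines only as a gene sum, and was named after its values were seen: 2.12 and 6.03 FPKM in the cells labelled HepG2 and 1.92 and 5.10 FPKM in Huh7.

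**Figure D2:**
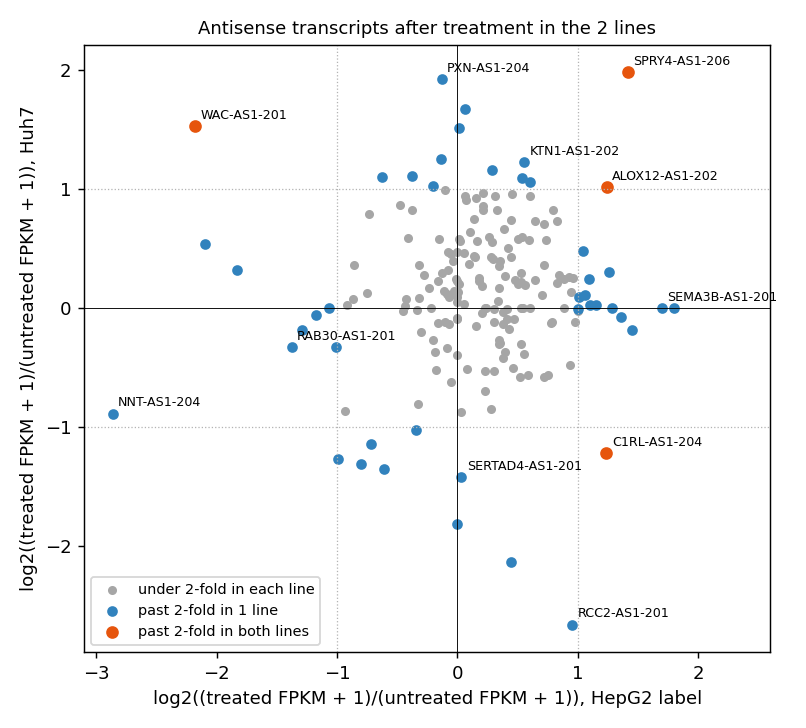
Log2 ratio of treated to untreated FPKM plus 1 for the 192 antisense transcripts of at least 1 FPKM in some library, in the cells labelled HepG2 (x) and in Huh7 (y), with 2-fold marked by dotted lines. SPRY4-AS1-206 and ALOX12-AS1-202 lie past 2-fold at upper right, and WAC-AS1-201 and C1RL-AS1-204 in opposite corners.

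The lowest ratios in the cells labelled HepG2 were those of NNT-AS1-204, WAC-AS1-201 and ZNF213-AS1-206. NNT-AS1-204, beside the gene of the mitochondrial enzyme that makes NADPH from NADH, stood at 6.28 FPKM in the untreated and 0.000635 FPKM in the treated library, and in Huh7 went from 1.33 to 0.262 FPKM. The untreated value rests on 770 implied fragments and the treated value on fewer than 1. The transcripts of NNT-AS1 together went from 7.74 to 0.940 FPKM in the cells labelled HepG2 and in Huh7 from 1.89 to 0.896 FPKM, so the gene sum was also lower in each treated library. NNT itself went from 33.5 to 39.3 FPKM in the HepG2-labelled cells and from 8.90 to 8.30 FPKM in Huh7, with log2 ratios of 0.23 and -0.09. The exons of NNT-AS1-204 overlap coding exons over 2.37% of their length.

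ZNF213-AS1-206 went from 4.90 to 0.376 FPKM in the cells labelled HepG2 and in Huh7 from 0.438 to 1.09 FPKM. H1FX-AS1-204, beside a linker histone gene, stood at 2.55 FPKM in the untreated and was listed at 0 in the treated library labelled HepG2. PRR34-AS1-201, which has no coding partner in the table, went from 4.83 to 1.38 FPKM in the cells labelled HepG2 and was under 0.25 FPKM in both Huh7 libraries. The highest ratios of that line were those of NUTM2A-AS1-210, SEMA3B-AS1-201 and ZNF687-AS1-201. NUTM2A-AS1-210 was listed at 0 in the other 3 libraries and stood at 2.49 FPKM in the treated library labelled HepG2. SEMA3B-AS1-201 went from 0.273 to 3.14 FPKM and was listed at 0 in both Huh7 libraries. Its partner SEMA3B, a secreted semaphorin gene whose start lies 187 bases away on the opposite strand, went from 24.4 to 31.0 FPKM in the cells labelled HepG2 and in Huh7 from 0.292 to 0.534 FPKM. ZNF687-AS1-201, beside a zinc finger gene, went from 0.573 to 3.30 FPKM in the cells labelled HepG2 and in Huh7 from 1.22 to 0.958 FPKM.

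In Huh7 the lowest ratios were those of RCC2-AS1-201, URB1-AS1-201 and EPHA5-AS1-203. RCC2-AS1-201 stood at 5.31 FPKM in untreated Huh7 and at 1e-06 FPKM in treated Huh7, and went from 2.42 to 5.63 FPKM in the cells labelled HepG2. All of its exonic bases (100%) lie over coding exons, and RCC2, a chromosome condensation regulator gene, went from 78.0 to 52.1 FPKM in Huh7. URB1-AS1-201 went from 3.56 to 0.0382 FPKM in Huh7 beside 13.4 and 13.8 FPKM for URB1, a ribosome biogenesis gene whose start lies 104 bases away. EPHA5-AS1-203 stood at 2.52 FPKM in untreated Huh7 and was listed at 0 in the other 3 libraries, while EPHA5, an ephrin receptor gene starting 35 bases away, went from 3.86 to 4.69 FPKM in Huh7. For both of these head-to-head loci the antisense transcript was lower and the partner within 2-fold.

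The highest ratios in Huh7 were those of SPRY4-AS1-206, PXN-AS1-204 and TAPT1-AS1-201. PXN-AS1-204, beside the gene of the focal adhesion protein paxillin, went from 0.0544 to 3.003 FPKM in Huh7 and from 2.41 to 2.12 FPKM in the cells labelled HepG2. TAPT1-AS1-201 went from 0.229 to 2.91 FPKM in Huh7 and was under 0.13 FPKM in the HepG2-labelled libraries, and the gene sum of TAPT1-AS1 went from 2.29 to 7.82 FPKM in Huh7. NDUFB2-AS1-201, beside a gene of mitochondrial complex I, went from 0.00990 to 1.88 FPKM in Huh7, and 42.7% of its exonic bases lie over coding exons while NDUFB2 went from 253 to 177 FPKM. FOXN3-AS1-201, with no exon shared with a coding gene, went from 1.98 to 5.19 FPKM in Huh7 and from 4.05 to 6.68 FPKM in the cells labelled HepG2, higher in both treated libraries.

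Calls on single transcripts were not always calls on the gene. Of the 25 transcripts past 2-fold in the cells labelled HepG2, the sum over the transcripts of the gene was past 2-fold the same way for 12, and of the 24 in Huh7 for 16. Library values under 1 implied fragment on the lower side were behind 11 of the 25 and 13 of the 24 calls, while the higher library held at least 15.5 implied fragments in all of them. NUTM2B-AS1-205 went from 1.89 to 0.895 FPKM in the cells labelled HepG2 and in Huh7 from 4.25 to 1.06 FPKM, while the gene's transcripts together went from 5.76 to 6.17 FPKM in the HepG2-labelled cells and from 8.27 to 7.05 FPKM in Huh7. NUTM2B-AS1-211 went from 1.71 to 2.47 FPKM in the HepG2-labelled cells and from 2.24 to 3.27 FPKM in Huh7, higher in each treated library. ZNF503-AS2 held a transcript of each direction in the cells labelled HepG2: ZNF503-AS2-202 stood at 1.26 FPKM and was then listed at 0, and ZNF503-AS2-204 was listed at 0 and then stood at 1.06 FPKM. Over antisense genes with at least 2 transcripts above 0 and a sum of 1 FPKM in both libraries, the transcript with the highest FPKM differed between treated and untreated cells in 20 of 60 genes (33.3%) in the cells labelled HepG2 and in 17 of 61 (27.9%) in Huh7. The part of the isoform assignment in these differences was not tested.

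**Figure D3:**
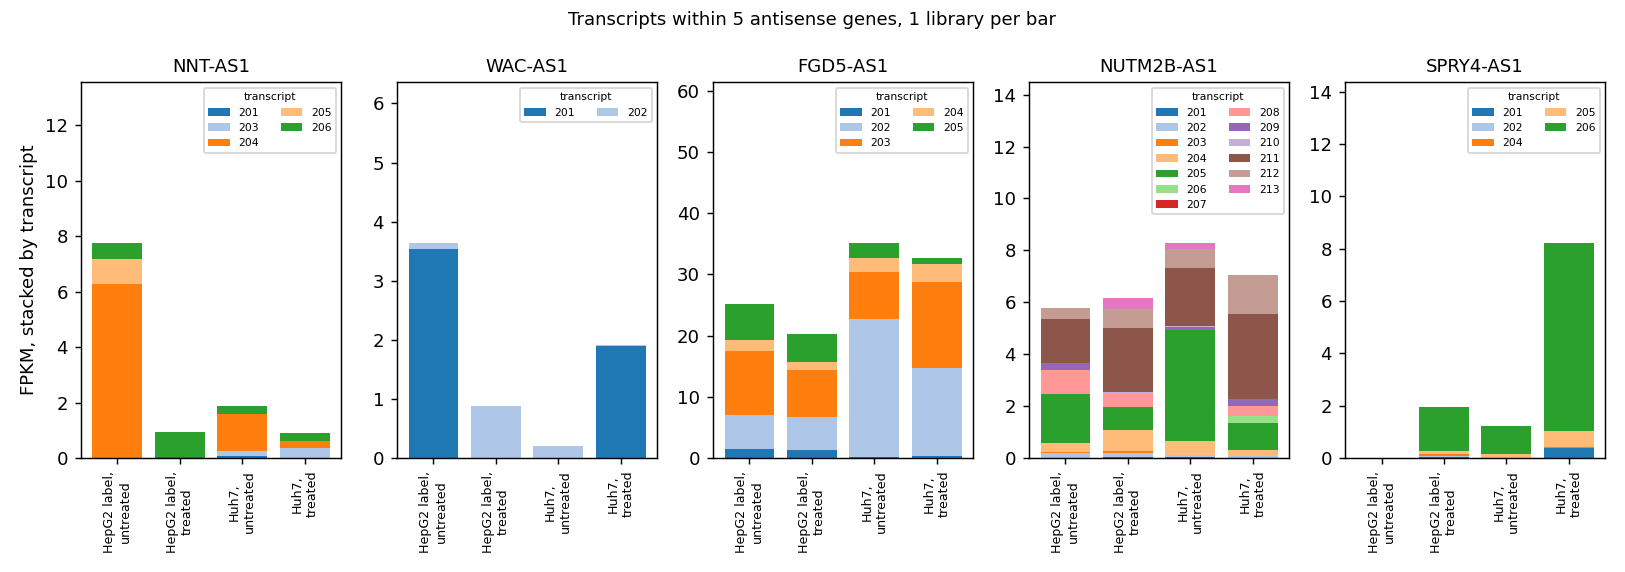
FPKM of every transcript above 0 in 5 antisense genes, stacked by transcript, 1 bar per library. The low bars of NNT-AS1 lack most of transcript 204, the leading transcript of WAC-AS1 is 201 or 202 depending on the library, the sums of FGD5-AS1 and NUTM2B-AS1 stay within 2-fold across treatment, and SPRY4-AS1 consists mostly of transcript 206.

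Summing the transcripts of each gene left 12 antisense genes higher and 5 lower of 139 in the cells labelled HepG2, and 15 higher and 7 lower of 136 in Huh7. These shares were 8.63% and 3.60%, then 11.03% and 5.15%. Over all coding genes they were 6.7% and 2.43%, then 3.88% and 2.19%. Sums by gene over all long noncoding transcripts were not computed, so these shares cannot be called particular to antisense genes. SPRY4-AS1 and SNAI3-AS1 were higher in both lines on this scale. WAC-AS1 and USP2-AS1 were lower in the cells labelled HepG2 and higher in Huh7.

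The test over both lines called 3 antisense transcripts. It was limma's moderated test on log2(FPKM + 1), with the 2 libraries of a cell line treated as a block. It ran over 2206 long noncoding transcripts and has 1 residual degree of freedom. In this fit the SE came from the spread over transcripts of like level and says nothing of agreement between the lines for the transcript itself. It was 0.29 for WAC-AS1-201, which went opposite ways in the lines, and 0.31 for SPRY4-AS1-206, higher in both. NNT-AS1-204 fell at a log2 fold change of -1.87 (SE 0.30, limma adjusted p = 6.29e-08), SPRY4-AS1-206 rose at 1.70 (SE 0.31, limma adjusted p = 5.34e-06), and NUTM2B-AS1-205 fell at -0.98 (SE 0.31, limma adjusted p = 0.0499). Each moved the same way in 2 of 2 lines. These 3 of 192 antisense transcripts compare with 72 of all 2206 long noncoding transcripts, 3.26%. A count of 3 is too small to tell the antisense share from that background. Of the 708 coding partners limma called 0 after adjustment and 69 at an unadjusted p under 0.05. Over all 13030 coding genes these counts were 0 (0%) and 1534. The coding table was fitted by itself, with its own spread, so its counts cannot be set against those of the noncoding table. TNFRSF14, a partner named after its values were seen, had a log2 fold change of 1.74 (SE 0.25, limma unadjusted p = 0.00015). SPRY4-AS1-206, at 1.70 (SE 0.31), had a limma unadjusted p of 3.15e-08. SPRY4 had a log2 fold change of 0.60 (SE 0.52, limma adjusted p = 0.660) and NNT of 0.07 (SE 0.24, limma adjusted p = 0.925). A pseudocount of 0.1 in place of 1 left 0 antisense calls, with 30 transcripts at an unadjusted p under 0.05, and so did the fit without the cell line block, with 1. NUTM2B-AS1-205 also lost its call in limma without trend (adjusted p = 0.255) and with no minimum (limma adjusted p = 0.152), whereas NNT-AS1-204 and SPRY4-AS1-206 were called in both of these fits.

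Antisense and partner were rarely past 2-fold together after treatment. Both members passed the minimum in 98 pairs of the cells labelled HepG2 and in 100 of Huh7, and their log2 ratios had the same sign in 62 and 59. In each line 2 pairs were past 2-fold the same way and 0 in opposite ways. The antisense transcript alone was past 2-fold in 16 and 18 pairs and the partner alone in 5 and 6, which sets single transcripts against whole genes. Of the coding partners, 6.61% were higher and 1.61% lower in the cells labelled HepG2, and 4.27% and 1.90% in Huh7. Ratios above 0 made up 56.77% and 61.39% of partners and 67.67% and 69.6% of antisense transcripts. How many joint calls or equal signs unrelated pairs would give was not computed, so these counts are a description. Pearson's r between the log2 ratios was 0.22 over the 98 pairs and 0.15 over the 100 pairs. This is a description, since the values of a pair share their libraries and some pairs share a partner.

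The pairs past 2-fold together were SPRY4-AS1-206 with SPRY4 and RAB30-AS1-201 with RAB30 in the cells labelled HepG2, and KTN1-AS1-202 with KTN1 and SERTAD4-AS1-201 with SERTAD4 in Huh7. Of the 2 pairs in Huh7, 1 shares exonic bases, so reads of its members cannot be told apart there, and 1 overlaps outside exons. Of those in the cells labelled HepG2, 0 share exonic bases and 1, that of SPRY4, overlaps outside exons. RAB30-AS1-201 went from 2.03 to 0.169 FPKM and RAB30, a Golgi small GTPase gene starting 143 bases away on the opposite strand, from 4.04 to 1.499 FPKM, a log2 ratio that fell short of 2-fold, at -0.99, with equal sums of coding FPKM. The other transcripts of RAB30-AS1 did not follow, as the gene sum went from 3.47 to 2.63 FPKM. KTN1-AS1-202 went from 0.886 to 3.41 FPKM in Huh7 and KTN1, which encodes the kinesin receptor kinectin, from 6.77 to 17.4 FPKM, and both were higher after treatment. In the cells labelled HepG2 KTN1-AS1-202 went from 1.94 to 3.33 FPKM and KTN1 from 26.1 to 21.9 FPKM, within 2-fold. SERTAD4-AS1-201 went from 2.69 to 0.382 FPKM in Huh7 and SERTAD4, a gene with a SERTA domain, from 3.17 to 0.919 FPKM. In the cells labelled HepG2 SERTAD4-AS1-201 went from 2.11 to 2.19 FPKM.

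**Figure D4:**
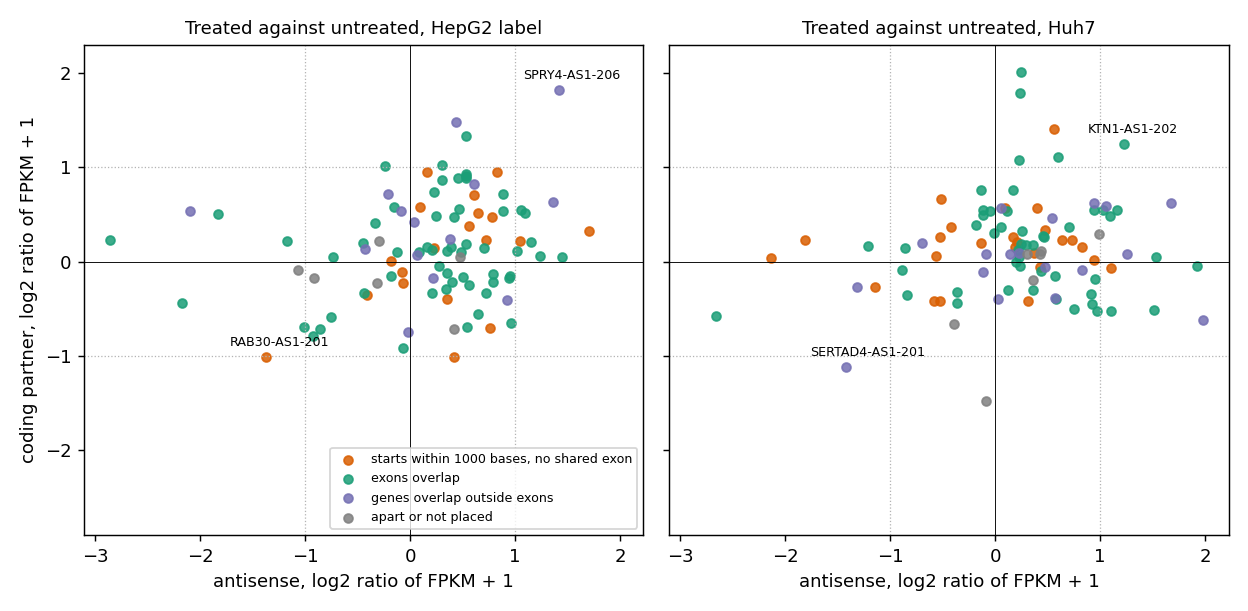
Log2 ratio of treated to untreated FPKM plus 1 for antisense transcript (x) and coding partner (y), for the 98 pairs of the cells labelled HepG2 (left) and the 100 pairs of Huh7 (right), coloured by how the genes lie to each other. The named pairs are past the dotted 2-fold lines on both axes, and no point lies past 2-fold in opposite directions.

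The pairs were also split by how the genes lie to each other. Of the 192 transcripts at 1 FPKM, 93 (48.4%) share exonic bases with their partner, 34 (17.7%) overlap it outside exons, 33 (17.2%) share no exon and start within 1000 bases on the opposite strand, and 26 (13.5%) lie apart. The other 6 could not be placed. In the cells labelled HepG2 the head-to-head pairs had the same sign in 15 of 19 and the exon-sharing pairs in 35 of 59. In Huh7 these counts were 15 of 25 and 27 of 50. Without knowledge of strand, the values of exon-sharing pairs cannot be told apart.

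More antisense transcripts were past 2-fold between the untreated lines than after treatment in either line, and pairs past 2-fold together went the same way. Of 119 antisense transcripts, 28 were at least 2-fold higher in Huh7 and 27 lower, beside 30.0% higher and 18.3% lower among all long noncoding transcripts and 17.5% and 17.2% among all coding genes. Both members passed the minimum in 92 pairs, 65 had the same sign, 20 were past 2-fold the same way and 0 in opposite ways, and the antisense transcript alone was past 2-fold in 20 and the partner alone in 19. Pearson's r was 0.59 and Spearman's rank correlation 0.56 across the 92 pairs, as a description. In the 20 head-to-head pairs, which share no exon, r was 0.62 with 4 pairs past 2-fold together, and in the 46 exon-sharing pairs it was 0.65 with 11. The 18 pairs that overlap outside exons gave 0.38 with 3. The line difference and the treatment comparison share the untreated libraries.

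**Figure D5:**
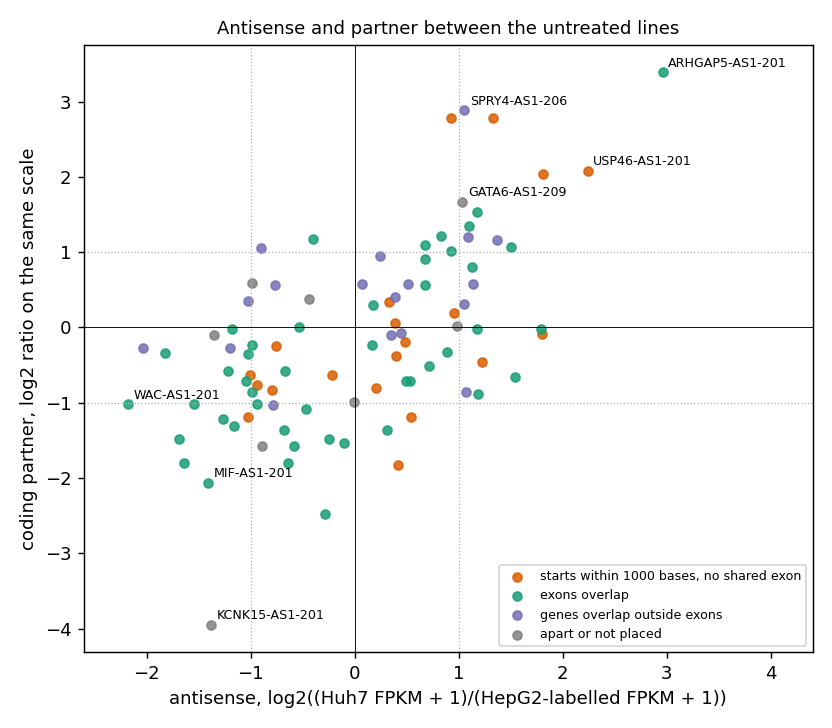
Log2 ratio of untreated Huh7 to the untreated library labelled HepG2 (FPKM plus 1) for antisense transcript (x) and coding partner (y) in 92 pairs, coloured by how the genes lie to each other. ARHGAP5-AS1-201 lies at upper right at 2.96 and 3.39, and no pair is past 2-fold in opposite directions.

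ARHGAP5-AS1-201 had the largest difference, at 0.358 and 0.537 FPKM in the HepG2-labelled libraries and 9.55 and 11.4 FPKM in Huh7. ARHGAP5, a GTPase-activating protein gene, went from 10.4 to 8.23 FPKM in the HepG2-labelled cells and from 119 to 252 FPKM in Huh7, so antisense and partner were both higher in each Huh7 library. The starts lie 679 bases apart and 16.5% of the antisense exonic bases lie over coding exons. USP46-AS1-201 went from 0.364 to 1.14 FPKM in the HepG2-labelled libraries and in Huh7 from 5.44 to 9.71 FPKM. USP46, a deubiquitinase gene that starts 71 bases away with no shared exon, went from 1.03 to 1.91 FPKM in the HepG2-labelled cells and from 7.58 to 9.04 FPKM in Huh7. The Huh7 libraries of both members lay above those labelled HepG2 at this locus. EPHA5-AS1-203 and EPHA5 were also higher in untreated Huh7 than in the untreated library labelled HepG2, where the antisense was listed at 0 and EPHA5 stood at 0.177 FPKM.

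FGD5-AS1 differed between the lines in its transcripts more than in its sum. FGD5-AS1-202 went from 5.52 to 5.28 FPKM in the HepG2-labelled libraries and in Huh7 from 22.6 to 14.4 FPKM, whereas FGD5-AS1-205 went from 5.86 to 4.46 FPKM in the HepG2-labelled cells and from 2.48 to 0.990 FPKM in Huh7. Higher in the libraries labelled HepG2 were IGFL2-AS1-203 at 3.91 and 8.83 FPKM, against 0.192 and 0.185 FPKM in Huh7, and ELFN1-AS1-202 at 2.82 and 2.29 FPKM, which was listed at 0 in both Huh7 libraries. IGFL2, the partner of the first, was at or under 0.132 FPKM in all 4 libraries.

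By the role of the partner, the counts after treatment were small in every group. Beside genes for signalling, adhesion and membrane traffic, 4 of 23 antisense transcripts were higher and 1 lower in the cells labelled HepG2, and 4 of 22 higher and 0 lower in Huh7. Their medians were 0.35 and 0.35, near those of all antisense transcripts. Over all antisense transcripts 12.03% were higher and 6.77% lower in the cells labelled HepG2 and 11.2% and 8% in Huh7, and the groups hold too few transcripts to be told apart from these shares. Beside transcription factor genes 1 of 11 was higher and 1 lower in the cells labelled HepG2, and 1 of 15 higher in Huh7. Beside genes of redox, iron, ferroptosis and stress response 3 transcripts passed the minimum in each line, and in each 1, ALOX12-AS1-202, was higher. A stress gene could be past 2-fold in both lines beside an antisense gene with no signal: DDIT4, a stress-induced inhibitor of mTORC1 signalling named after its values were seen, went from 44.8 to 114 FPKM in the cells labelled HepG2 and in Huh7 from 3.996 to 12.3 FPKM, while DDIT4-AS1 was listed at 0 in all 4 libraries. Beside genes of protein synthesis, the proteasome and ubiquitin 0 of 7 were past 2-fold in the cells labelled HepG2, and 2 of 13 were higher and 1 lower in Huh7. Beside genes of mitochondria and metabolism 1 of 4 was higher and 1 lower in the former, and 1 of 3 higher in the latter. Beside genes of the cell cycle and DNA repair 0 of 3 were past 2-fold in the cells labelled HepG2.

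Of the nuclear RNA decay machinery that removes antisense RNA, 31 coding genes passed the minimum, among them exosome subunits and adaptors, the exonuclease XRN2 and the Integrator subunits INTS9 and INTS11. In the cells labelled HepG2 1 of them was higher, EXOSC3, a subunit of the exosome cap, at 4.19 and 11.6 FPKM, and 0 were lower. In Huh7 0 were past 2-fold, and EXOSC3 went from 9.38 to 8.13 FPKM. The median log2 ratios of the list were -0.10 and 0.01, against 0.09 and 0.10 over all coding genes. Of 23 genes that sense, edit or cut double-stranded RNA, 15 passed the minimum in each line. OASL passed it only in the cells labelled HepG2 and IFIH1 only in Huh7. In either line 0 of the 15 were past 2-fold, with medians of -0.30 and 0.31. Over all coding genes the shares were 6.7% higher and 2.43% lower in the cells labelled HepG2 and 3.88% and 2.19% in Huh7.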

How the data were processed

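RNA-seq libraries of 4 samples were measured, 1 per group, grouped by the labels. FPKM per long noncoding transcript and per coding gene are the authors' deposited values, 1 column per library per the file headers. StringTie 1.3.1, Cuffdiff 2.1.1, HISAT2, Bowtie2 2.2.8, GATK, SAMtools 0.1.18 and Picard 1.96 are listed, without roles, per the submitters' processing notes. Build, annotation, strand and RNA selection: not given in the sources used here. Among members, 3489 have a GENCODE 29 identifier and 3464 (99.28%) match its GRCh38 position within 1 base, so lengths, strands and layouts came from GENCODE 29. Isoform FPKM are estimates, which can move reads between transcripts of a gene, so gene sums are given beside them.

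The log2 ratio used a pseudocount of 1 and the minimum of 1 FPKM, which understates changes of low values. Implied fragments are FPKM times length in kilobases times depth in 1000000 fragments. Of the low values, 54.6% to 57.9% per library lay near a whole number of fragments, so the depth is approximate. With 1 library per group only limma 3.58.1 (R 4.3.3, trend, cell line block, 2206 transcripts, Benjamini-Hochberg, threshold 0.05) gave p-values. They weigh the mean change over both lines against a spread taken over transcripts of like level. They measure neither the agreement of the lines for 1 transcript nor the spread of repeat cultures. The pairing by cell line comes from the labels. Scripts were tested on simulated data. Members, lists, tests and the named genes (highest mean, largest ratios, both lines, pairs past 2-fold, role groups, largest line differences) were chosen with earlier results of these data known. Alternatives were another pseudocount, no or a stricter minimum, 2 rescalings, gene sums and limma settings. The authors' enrichment tables hold coding genes and no antisense gene, and were not used.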

Additional observations from a re-analysis of the deposited data

Results flagged for a closer look

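WAC-AS1-201 and C1RL-AS1-204 were past 2-fold in opposite directions in the 2 lines. WAC-AS1-201, beside the gene of a chromatin and autophagy adaptor protein, went from 3.53 to 0.00264 FPKM in the cells labelled HepG2 and in Huh7 from 0.00190 to 1.89 FPKM, so its log2 ratio was 3.71 larger in Huh7. The values rest on 211 and 101 implied fragments on the high side and on fewer than 1 on the low side. The other transcript, WAC-AS1-202, went from 0.0985 to 0.883 FPKM in the HepG2-labelled cells and from 0.207 to 0.0213 FPKM in Huh7, opposite to WAC-AS1-201 in each line, and WAC from 20.6 to 14.9 FPKM in the HepG2-labelled cells and from 9.65 to 10.0 FPKM in Huh7. C1RL-AS1-204, beside a complement C1r-like protease gene, went from 1.04 to 3.81 FPKM in the cells labelled HepG2 and in Huh7 from 2.25 to 0.399 FPKM, a difference between log2 ratios of -2.46. C1RL went from 6.84 to 7.18 FPKM in the HepG2-labelled cells and from 15.8 to 17.9 FPKM in Huh7. The difference between lines was not tested for either transcript, because each group holds 1 library.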

How the results depend on the processing

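With 1 library per group no library could be left out. No count past 2-fold changed without the minimum, since a 2-fold ratio at pseudocount 1 needs 1 FPKM. The median log2 ratios, 0.35 and 0.28, were 0.03 and 0.03 without the minimum, 0.57 and 0.45 with a pseudocount of 0.1 and 0.31 and 0.18 with size factors, and above 0 in all alternatives. A pseudocount of 0.1 gave 42 higher and 14 lower in the cells labelled HepG2, 37 higher and 16 lower in Huh7, 6 the same way in both lines, 7 pairs past 2-fold together and 86 transcripts apart between the untreated lines, in place of 16, 9, 14, 10, 2, 4 and 55. A minimum of 5 FPKM gave 1, 1, 2, 1, 0, 0 and 7 in that order. Size factors, which shift every Huh7 ratio by -0.12 and every ratio between the lines by 0.11, left 1 transcript in both lines, SPRY4-AS1-206, and gene sums 5 lower in the cells labelled HepG2. Chosen after seeing the data, leaving out members whose exons overlap a coding exon gave 7 higher and 4 lower in the cells labelled HepG2. In Huh7 it gave 4 higher and 7 lower, in place of 14 and 10. The median log2 ratio in Huh7 stayed at 0.28, so the remaining transcripts as a set were not shifted down, and it was 0.29 in the cells labelled HepG2. It left 1 transcript in both lines and 26 apart between the lines. These counts come from fewer transcripts, and no share over all long noncoding transcripts was computed for this setting. The cause of the changed counts in Huh7 was not tested. Pairs past 2-fold in opposite directions numbered 0 under all alternatives. The fit with no cell line block called 0 antisense transcripts, a pseudocount of 0.1 called 0, limma without trend 2 and no minimum 5, in place of 3 with the block; the causes were not tested. Limma without trend kept NNT-AS1-204 and SPRY4-AS1-206, and no minimum kept these and added ALOX12-AS1-202, CCDC144NL-AS1-217 and PRKRA-AS1-207, named after their values were seen. Among log2 ratios of single named genes, 4 fell short of 2-fold under size factors and 3 under equal sums of coding FPKM, and no ratio past 2-fold changed sign. Size factors changed the sign of 4 ratios near 0, those of ZNF687 in the cells labelled HepG2 and of WAC, PSMA3 and URB1 in Huh7, from 0.05, 0.05, 0.08 and 0.04 to -0.0035, -0.06, -0.04 and -0.07. No paired analysis by replicate number was possible because each group holds 1 library; the cell line block is the pairing used. Depth limits transcripts under about 1 FPKM, where 1 kb holds about 23 to 26 fragments.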

Other observations

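TTN-AS1, which faces the gene of the giant muscle protein titin and has 71 listed transcripts, in sum went from 4.58 to 7.16 FPKM in the cells labelled HepG2 and in Huh7 from 6.08 to 14.9 FPKM. TTN went from 0.00551 to 0.0126 FPKM in the HepG2-labelled cells and from 1.03 to 1.97 FPKM in Huh7, so the antisense sum exceeded the partner in all 4 libraries. USP2-AS1, which starts beside a deubiquitinase gene, in sum went from 1.11 to 0.0463 FPKM in the cells labelled HepG2 and in Huh7 from 0.0788 to 1.63 FPKM.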
